A study of Mus musculus with 12 samples.

Results

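The cytosolic ribosomal protein genes are described here in messenger RNA pulled down with tagged ribosomes from subcutaneous mouse melanomas. Members were gene symbols of the deposited count table that carry an Rpl or Rps name with a number, together with Rplp0, Rplp1, Rplp2 and Rpsa, with a total of at least 120 counts over the 12 libraries. Of 24421 symbols 78 matched the names and 76 met the minimum, 46 of the large and 30 of the small ribosomal subunit. That rule uses names and total counts and no difference between tumours, but it was set with earlier results of these data known. Just inside the minimum were Rpl28 with 128 and Rps27 with 159 counts in total, and just outside were Rps29 with 89 and Rpl26 with 4. The libraries came from B16F10 tumours (n = 7 libraries), labelled highly metastatic, and B16F0 tumours (n = 5 libraries), which the labels give as the poorly metastatic counterpart. Both are pigmented mouse melanoma lines, grown for 12 days in C57BL/6 hosts of the genotype Rpl22fl/flHA;Cdh5(PAC)-CreERT2, and hosts of both groups received tamoxifen. In these hosts Cre under the control of Cdh5, the endothelial cadherin gene, switches Rpl22 to a form with an HA tag, so that the tag marks ribosomes of blood vessel cells and not those of the implanted tumour cells. Whether the libraries of one tumour type stem from different animals is not in the labels, and p-values below therefore describe library-to-library spread, which may be technical. Fewer cells of a type and less RNA per cell cannot be told apart in such libraries.

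Each cytosolic ribosome is built from ribosomal RNAs and one copy of most ribosomal proteins, so their messages are needed in balance. Most of these messages begin with a terminal oligopyrimidine (TOP) tract, a cytosine followed by a run of pyrimidines at the transcript start, through which the TOR kinase and the RNA-binding protein Larp1 switch their loading onto ribosomes. Many ribosomal protein genes also carry small nucleolar RNAs in their introns and have processed pseudogenes elsewhere in the genome, whose near-identical sequence makes their reads hard to place.

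Because TOP tracts sit at the transcript start, the 30 bases around the RefSeq start (15 before it and 15 from it on, GRCm38.p6, gene strand, 5′ to 3′) are shown for some of the members named below. Capitals mark CTTTC or CTTCC, short pyrimidine runs of the kind found in TOP tracts, which overlap by a base in CTTCCTTTC. The first 6 lines are Rpl15 (chr14:18270972-18271001, minus strand), Rplp2 (chr7:141447636-141447665, plus), Rps10 (chr17:27635230-27635259, minus), Rpl38 (chr11:114668565-114668594, plus), Rps15a (chr7:118116133-118116162, minus) and the Rpl22 paralog Rpl22l1 (chr3:28805493-28805522, plus). The last 2 are the starts listed for the tagged gene Rpl22 (chr4:152324421-152324450 and chr4:152325711-152325740, plus), which hold neither motif. All of the first 6 lines hold a motif, but they do not stand for the members at large. Rplp0, Rps21, Rps19, Rps25 and Rpl10, also named below, hold neither motif near the start.
Rpl15: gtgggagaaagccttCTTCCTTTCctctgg
Rplp2: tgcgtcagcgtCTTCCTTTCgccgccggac
Rps10: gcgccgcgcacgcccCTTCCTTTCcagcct
Rpl38: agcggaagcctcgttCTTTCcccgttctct
Rps15a: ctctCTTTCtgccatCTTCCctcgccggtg
Rpl22l1: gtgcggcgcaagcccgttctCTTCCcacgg
Rpl22 first start: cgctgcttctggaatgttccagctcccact
Rpl22 second start: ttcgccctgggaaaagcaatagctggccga

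Of the 76 members 57 were in the RefSeq promoter table. In the stretch from 20 bases before the start to 30 after it, CTTTC or CTTCC stood on the gene strand in 33 of them (57.9%), against 18.5% of all 27025 genes of the table. CTTTC alone was in 35.1% of these members and 7.7% of all genes on the gene strand, and in 8.8% and 7.3% on the other strand. For CTTCC the shares were 33.3% and 12.1% on the gene strand and 19.3% and 14.2% on the other. Over the whole 300 bases of each promoter and on either strand, CCGGAAG, the core bound by ETS factors, was in 40.4% of these members and 9.9% of all genes. AAGATGG, the core of YY1 sites, was in 15.8% and 7.3%, and CACGTG, the E-box that Myc binds, in 10.5% and 8.1%. TATAAA within the 50 bases before the start was in 1 of the 57 members (1.8%), against 3.1% of all genes. A match is a description of these letters only. Members with a start motif had a median log2 fold change of -0.02 between the tumours (n = 33) and members without one -0.10 (n = 24).

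Library totals were 5322510 to 20569186 gene counts in B16F10 and 10753106 to 17381336 in B16F0, spread over the sequencing lanes 1, 2 and 6. All 20 pan-endothelial markers were counted, none at 0, and they summed to 752 to 5283 CPM (counts on a common scale of library size) in B16F10 and 960 to 5513 CPM in B16F0. All 20 markers of pigment cells were counted as well and summed to 12410 to 24510 CPM in B16F10 and 14950 to 25320 CPM in B16F0, so the ribosomal protein messages below are those of precipitates that also hold abundant pigment cell RNA and cannot be assigned to vessel cells. Markers of macrophages (12 of 12 counted) summed to 34.2 to 322 CPM in B16F10 and 69.7 to 331 CPM in B16F0, and those of fibroblasts and pericytes (12 of 12 counted) to 113 to 1449 CPM in B16F10 and 101 to 358 CPM in B16F0. The ribosomal RNA precursor Rn45s took 31.4% of counts in B16F10 replicate 5 and 8.91% in B16F0 replicate 5, and at most 1.75% in the other 10 libraries. B16F10 replicates 1 and 2 held 959 and 775 CPM of olfactory, vomeronasal and taste receptor genes, against 10.6 to 339 CPM in the other 10.

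Ribosomal protein genes together took about 1 in 100 counts. Their share of all counts was 0.956% ± 0.246 in B16F10 (SD, n = 7) and 1.03% ± 0.179 in B16F0 (SD, n = 5), a difference of -0.069 percentage points that is smaller than the SD of either group. The 7 B16F10 libraries ran from 0.689% over a median of 0.855% to 1.31%, and the 5 B16F0 libraries stood at 1.23%, 1.14%, 0.756%, 0.977% and 1.02%. The groups overlapped over most of their range, and the lowest B16F10 value was that of the library richest in Rn45s. With Rn45s left out of the totals the shares were 1.01% ± 0.221 in B16F10 and 1.05% ± 0.184 in B16F0, and without the 3 libraries of lane 2 the difference was 0.057 percentage points, in the other direction. Large subunit genes took 0.618% ± 0.156 in B16F10 and 0.668% ± 0.121 in B16F0, and small subunit genes 0.338% ± 0.0923 in B16F10 and 0.357% ± 0.0597 in B16F0. Counting error was far smaller than these differences between libraries, with a 95% Clopper-Pearson interval of 0.799% to 0.814% in the shallowest library, B16F10 replicate 1. It covers counting error only.

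The counted messages differed widely between members. Per kilobase of transcript the mean level over the 12 libraries ran from 0.754 CPM per kb for Rpl28 to 1342 CPM per kb for Rpl4, a 1780-fold range, with 25 members above 100 and 24 under 10 CPM per kb. Rpl4, a protein that lines the tunnel through which the new chain leaves the ribosome, took 14.9% to 25.1% of all ribosomal protein counts of a library. The 5 members with the highest mean CPM took 45.3% of ribosomal protein counts. They were Rpl4, Rpl8, a core protein near the peptidyl transferase centre, Rps3, at the entry of the mRNA channel, Rpl13a, known for silencing translation in human monocytes after its release from the ribosome, and Rpl32, a large subunit protein. Per kilobase Rpl8 stood at 853, Rps3 at 324, Rpl13a at 588 and Rpl32 at 894 CPM per kb. The 5 members with the lowest mean CPM were Rpl28, Rps27, Rpl34, Rpl36a and Rpl23a, at 0.754, 3.15, 2.68, 3.83 and 3.85 CPM per kb. Beside this range each gene's level in B16F10 lay close to its level in B16F0.

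**Figure D1:**
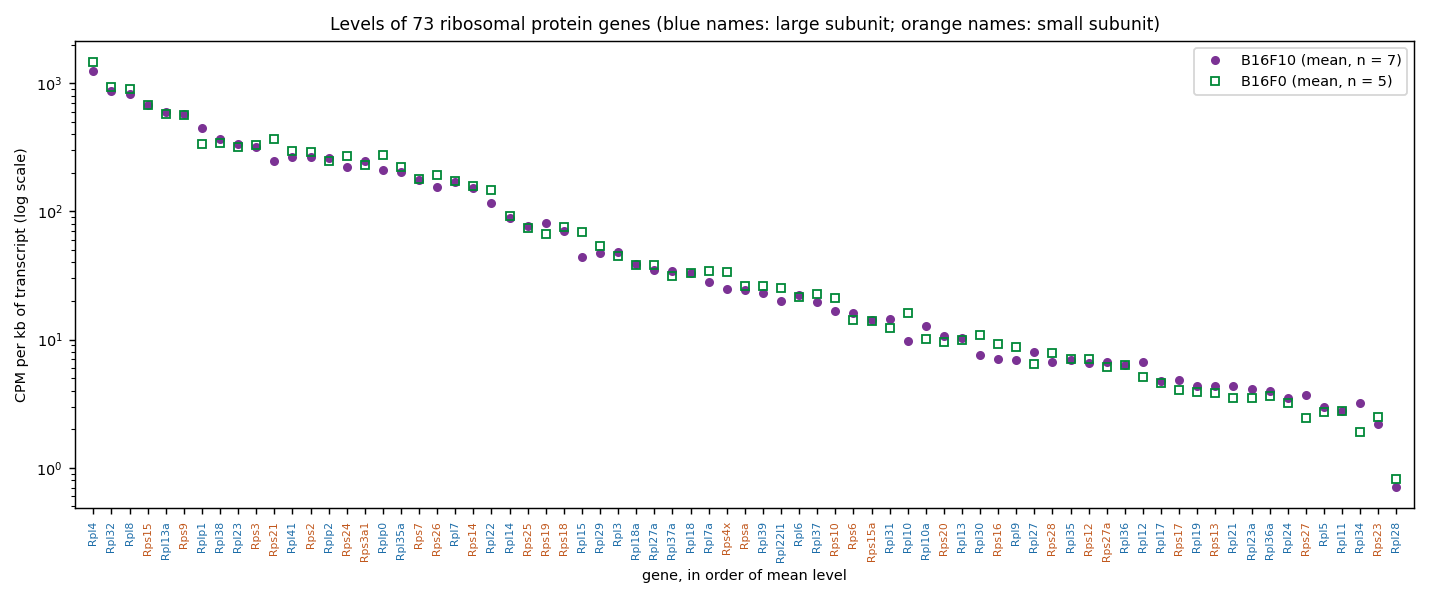
Mean level of 73 of the 76 ribosomal protein genes in CPM per kb of transcript (log scale), with genes in order of their mean, in B16F10 (filled circles, n = 7) and B16F0 (open squares, n = 5). Levels run from 1342 CPM per kb for Rpl4 to 0.754 CPM per kb for Rpl28, and circle and square lie close together beside that range.

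Levels went with how much of a transcript can be told from other genes. The share of 50-base stretches of a member's transcript that occur in no other gene of GENCODE release M21 ran from 1.4% for Rps27 to 100%. In the 18 members with under 20% such stretches the median level was 6.88 CPM per kb, in the 17 with 20% to 40% it was 22.4, in the 17 with 40% to 60% it was 74.9 and in the 24 above 60% it was 163 CPM per kb. Across the 76 genes, which share libraries and are not independent, the log2 level per kb and this share had a Pearson r of 0.497 and a Spearman rho of 0.498. With the number of pseudogenes that share a 50-base stretch rho was -0.386, and with transcript length 0.089. Exceptions stood in each direction. Rps15a, of the small subunit, with 93.6% of stretches unique, had 14.2 CPM per kb, and Rpl3, the large subunit protein next to the peptidyl transferase centre, with 14.4%, had 46.7 CPM per kb. Both values of Rps15a rest on the transcript chosen for it, of 5179 bases with 390 coding, where the median over the members is 816 bases. With a shorter transcript its level per kb would be higher, so it may be no true exception. The same holds for Rps20, with a transcript of 3706 bases (357 coding), 92.4% of stretches unique and 10.2 CPM per kb. Among members of shorter transcripts, Rpl28 had the lowest level of all, 0.754 CPM per kb, with 52.6% unique, and Rpl34 had 2.68 CPM per kb with 49.4%. The treatment of reads that match several places is not given in the sources used here. The level of a member with few unique stretches is for that reason uncertain. The part of this in the levels was not tested.

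**Figure D2:**
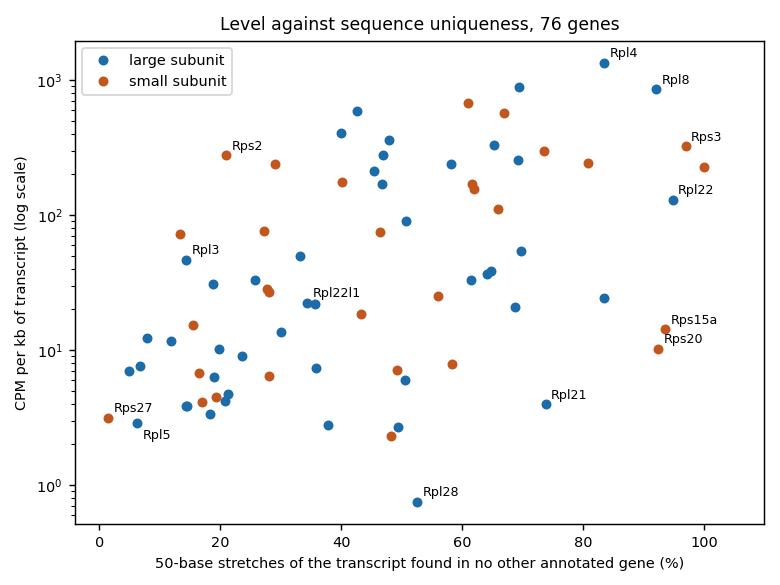
Mean level of each ribosomal protein gene in CPM per kb (log scale) against the share of its transcript's 50-base stretches found in no other annotated gene (percent), with large subunit genes in blue and small subunit genes in orange. The 18 genes under 20% have a median of 6.88 CPM per kb and the 24 genes over 60% a median of 163 CPM per kb, with wide scatter (Spearman rho 0.498).

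Small nucleolar RNA genes lay inside 30 of the 76 members on the same strand (39.5%), against 1.2% of 19889 protein-coding genes of the count table. Rpl4 held 5 of them and Rpl13a held 4. These RNAs guide the modification of ribosomal RNA. The median level was 24.8 CPM per kb in the 30 hosts and 33 CPM per kb in the 46 other members.

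The tagged gene itself, Rpl22 (ENSMUSG00000028936.15, chr4:152325742-152334071, GRCm38, plus strand), was counted in every library. Rpl22 ran from 187 over a median of 217 to 301 CPM in B16F10, and stood at 405, 347, 237, 258 and 257 CPM in the 5 B16F0 libraries. The groups overlapped, with 2 B16F0 libraries above all of B16F10. The mean was 241 ± 44.5 CPM in B16F10 and 301 ± 72.2 CPM in B16F0 (SD, n = 7 and 5), and the log2 fold change of -0.32 ± 0.19 (SE) did not pass edgeR's quasi-likelihood test (Benjamini-Hochberg adjusted p = 0.485, 95% interval -0.731 to 0.092). Its size rested on B16F0 replicate 1, the highest library, without which it was -0.09 (adjusted p = 0.921), and it was -0.0032 with the melanocytic score in the model. The table has a single row for the gene and does not separate the tagged from the untagged form, so it does not report how far the tag was switched on. Rpl22 varied little, with the second smallest spread within groups of the 76 members (SD of 0.29 on the log2 scale, after Rpl27 at 0.26). In the 3 libraries with the most endothelial RNA, B16F10 replicates 4 and 5 and B16F0 replicate 3, Rpl22 was at 217, 212 and 237 CPM, within the range of the others.

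Its paralog Rpl22l1 (ENSMUSG00000039221.10, chr3:28805436-28807424, plus strand), which Rpl22 protein holds down in mouse tissues and which replaces it on ribosomes when it is lost, was far lower. It ran from 7.30 over a median of 10.2 to 17.7 CPM in B16F10 and stood at 18.9, 13, 12.4, 15.8 and 10.2 CPM in B16F0, with overlapping groups. Per kilobase Rpl22l1 was at 22.4 and Rpl22 at 130 CPM per kb. Of their 50-base stretches 34.4% were unique for Rpl22l1 and 94.8% for Rpl22, so the 2 levels and their ratio are not on a like footing. The part of this in the gap was not tested. The log2 fold change of Rpl22l1 was -0.37 ± 0.23 (SE), which did not pass edgeR's quasi-likelihood test (adjusted p = 0.525, interval -0.874 to 0.144), and it was 0.03 in limma-voom with quality weights. The log2 ratio of Rpl22 to Rpl22l1 counts stayed between 4.03 and 4.86 in all 12 libraries. It was 4.57, 4.86 and 4.26 in the 3 libraries richest in endothelial RNA, of which B16F10 replicate 5 held the highest ratio of the 12.

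Between B16F10 and B16F0 no ribosomal protein gene passed the test. Of 76 members 0 were higher and 0 lower in B16F10 at an adjusted p under 0.05 in edgeR's quasi-likelihood test with lane in the model, where 2.77% of all 13534 tested genes were called (1.3% higher and 1.47% lower). DESeq2 and limma-voom called 0 members as well. At an unadjusted p under 0.05 there was 1 member (1.32%), against 14.8% of all tested genes, and 0 members had groups without overlap, against 2.73% of all. The median log2 fold change was -0.05 over the members, with 30 positive and 46 negative (60.5% negative, against 47.5% of all tested genes), and 0.02 over all tested genes. That lean to the negative side depended on the model. With the replicate number as a block, which used numbers 1 to 5 only and tested 74 members, 58 were negative (median -0.24). Of the 76 members, 32 were negative with the library name prefix in place of the lane (0.03), 26 in limma-voom (0.10) and 25 with the melanocytic score (0.11). The members also lay closer together than genes at large, with an SD of fold changes of 0.26 against 0.53. Their quartiles were -0.19 and 0.11, against -0.18 and 0.27 for all tested genes. Within groups the members varied more between libraries, with a median SD of 0.53 on the log2 scale against 0.43 over all tested genes.

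Intervals say what size of difference these libraries leave possible. For 66 of the 76 members the 95% interval lay within a 2-fold difference in either direction, and for 75 it crossed 0. The other 10 were Rpl10, Rpl12, Rpl15, Rpl24, Rpl28, Rpl34, Rps13, Rps21, Rps26 and Rps27. For Rpl34 the interval ran from -0.282 to 1.61 and for Rpl28 from -1.3 to 1.17, and these are among the members with the fewest counts. The sign of the members' median was not stable. In lane 1 the median B16F10 minus B16F0 difference was 0.15 (49 members higher, 27 lower), in lane 2 it was -0.54 (26 higher, 50 lower) and in lane 6 it was -0.04 (31 higher, 45 lower). Lane 2 sets B16F10 replicates 1 and 2, the libraries with the most receptor gene counts, against a single B16F0 library, and without lane 2 the median fold change was 0.04. The members lower in each of the 3 lanes were 11 (14.5%, against 19.6% of all tested genes), among them Rpl15, Rpl22, Rpl22l1, Rpl30, Rps21 and Rpsa, and the 3 higher in each (3.95%, against 18.6%) were Rpl27, Rpl31 and Rps27.

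**Figure D3:**
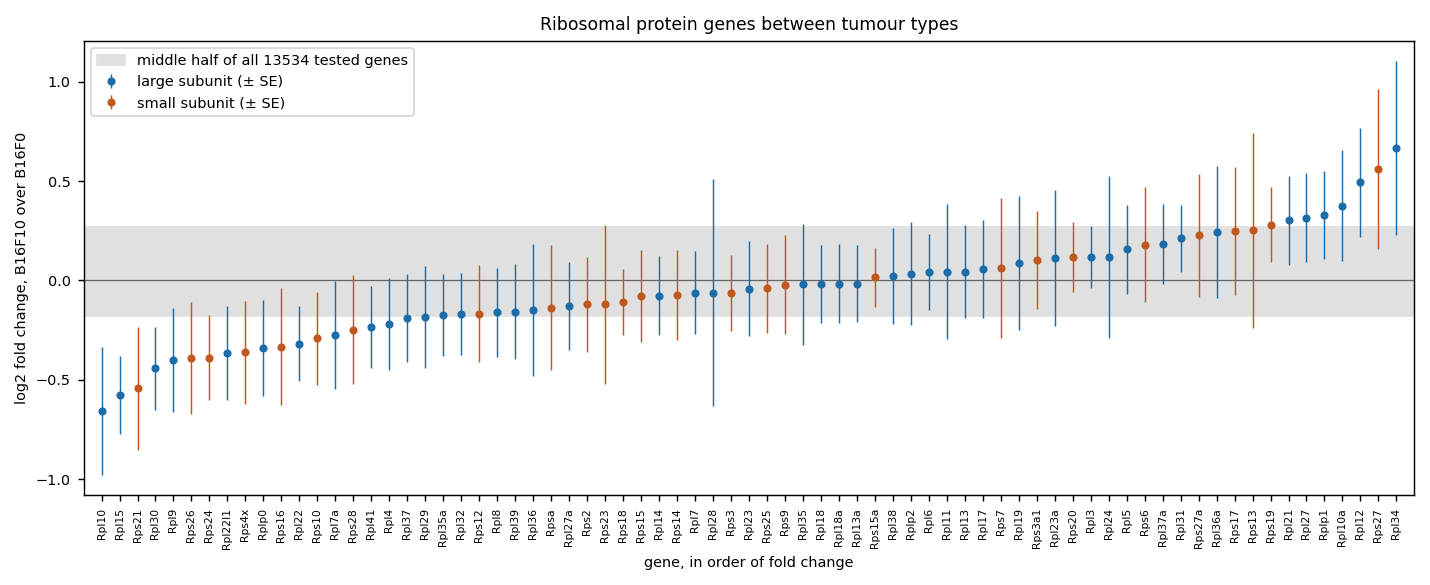
Log2 fold change of B16F10 over B16F0 with its standard error for 73 of the 76 ribosomal protein genes in order of size, large subunit in blue and small subunit in orange. The grey band spans the quartiles of all 13534 tested genes (-0.18 to 0.27), and the members run from -0.66 for Rpl10 to 0.67 for Rpl34.

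Among members of at least 50 CPM, Rpl15 had the lowest fold change. Rpl15 (ENSMUSG00000012405.16, chr14:18267823-18271391, minus strand) is a large subunit protein, mutated in some people with Diamond-Blackfan anaemia, and its start carries the joined CTTCCTTTC printed above. It ran from 60.7 over a median of 86.2 to 118 CPM in B16F10 and stood at 140, 200, 112, 100 and 107 CPM in B16F0. The groups overlapped between 100 and 118 CPM. Means were 85.3 ± 21.2 CPM in B16F10 (SD, n = 7) and 132 ± 41.1 CPM in B16F0 (SD, n = 5), with a log2 fold change of -0.58 ± 0.20 (SE), an unadjusted p of 0.0116 in edgeR's quasi-likelihood test and an adjusted p of 0.165. It was the single member with an interval that did not cross 0 (-1.0 to -0.153), and over 29 other settings its adjusted p ran from 0.0695 to 0.607 and its fold change from -0.69 to -0.20.

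The next lowest were small subunit proteins. Rps21 ran from 43.5 over 94.8 to 158 CPM in B16F10 and stood at 229, 160, 114, 149 and 73.7 CPM in B16F0, with a log2 fold change of -0.54 ± 0.31 (SE). Rps26, which touches the mRNA upstream of the start codon and is also mutated in that anaemia, ran from 27 over 107 to 210 CPM in B16F10 and stood at 113, 87.6, 64.5, 215 and 177 CPM in B16F0 (-0.39 ± 0.28). Rps24, another gene of that anaemia, ran from 166 over 379 to 589 CPM in B16F10 and stood at 407, 460, 332, 426 and 554 CPM in B16F0 (-0.39 ± 0.21). All 3 overlapped between the groups, and for Rps26 and Rps24 the highest library of each tumour type was one of lane 6. Without B16F0 replicate 1 the fold changes were -0.24 for Rps21, -0.036 for Rps26 and -0.095 for Rps24. None of the 3 passed edgeR's quasi-likelihood test (adjusted p = 0.462, 0.579 and 0.439). Among scarcer members, Rpl10, an X-linked gene whose protein is among the last to join the large subunit, averaged 7.77 ± 2.51 CPM in B16F10 and 12.8 ± 8.55 CPM in B16F0 (log2 fold change -0.66 ± 0.32, adjusted p = 0.37), with 1 B16F0 library at 27.2 CPM. Rpl30, known in yeast for binding its own transcript, averaged 4.36 ± 0.73 CPM in B16F10 and 6.17 ± 1.95 CPM in B16F0 (-0.44 ± 0.21, adjusted p = 0.352).

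At the other end stood Rplp1, a protein of the stalk that recruits elongation factors. Its partners in the stalk are Rplp0, which anchors it to the ribosome, and Rplp2, with which it pairs. Rplp1 ran from 111 over 223 to 364 CPM in B16F10 and stood at 181, 151, 141, 140 and 216 CPM in B16F0, and its 3 highest values, 364, 320 and 256 CPM, were those of the B16F10 libraries of lane 6. Its log2 fold change was 0.33 ± 0.22 (SE), which did not pass edgeR's quasi-likelihood test (adjusted p = 0.546, interval -0.151 to 0.809). Rplp0 ran from 177 over 271 to 445 CPM in B16F10 and stood at 674, 392, 282, 273 and 266 CPM in B16F0 (-0.34 ± 0.24, adjusted p = 0.577). A single library, B16F0 replicate 1 at 674 CPM, lay above all others, and without it the fold change of Rplp0 was 0.01. Rplp2 ran from 123 over 299 to 365 CPM in B16F10 and stood at 201, 385, 211, 152 and 252 CPM in B16F0 (0.03 ± 0.26, adjusted p = 0.972). At each of these 3 stalk genes the tumour types overlapped.

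The other abundant members with positive fold changes were near 0. Rpl3 averaged 65.2 ± 7.69 CPM in B16F10 and 60.2 ± 16.4 CPM in B16F0 (log2 fold change 0.12 ± 0.16 SE), and Rps3a1, a small subunit protein that binds initiation factors, 241 ± 80 CPM in B16F10 and 226 ± 53.3 CPM in B16F0 (0.10 ± 0.25). Rps7, which also binds Mdm2, the ubiquitin ligase of p53, averaged 167 ± 59.4 CPM in B16F10 and 170 ± 117 CPM in B16F0 (0.06 ± 0.35), a positive fold change with the lane in the model and -0.03 without it. Rpl38, which favours translation of Hox messages in mouse embryos, averaged 134 ± 79.6 CPM in B16F10 and 124 ± 44.5 CPM in B16F0 (0.02 ± 0.24). Each had an interval across 0, for Rpl38 from -0.502 to 0.547, and an adjusted p of at least 0.796 in edgeR's quasi-likelihood test. Their order is not a ranking, since each changed sign when some single library was left out. Rpsa, the small subunit protein known also as the laminin receptor, ran from 16.3 over 49.3 to 74.9 CPM in B16F10 and stood at 70.3, 57.7, 38.9, 59.1 and 29.6 CPM in B16F0 (-0.14 ± 0.31, adjusted p = 0.893). Its lowest value in either tumour type was that of the Rn45s-rich library, B16F10 replicate 5 and B16F0 replicate 5.

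Some members differed between the sequencing lanes, which the same fit held as a term. In it 9 of the 76 members (11.8%) passed edgeR's quasi-likelihood test for any difference between lanes, against 3.14% of all tested genes. Their adjusted p ran from 0.0245 to 0.0499 and each was highest in lane 6, among them Rps15a, Rps19, Rps25, Rps28, Rpl17, Rpl10a, Rpl41 and Rpl23. The number depended on single libraries. It was 0 without B16F10 replicate 1, 2, 6 or 7 or B16F0 replicate 2 or 5, between 3 and 4 without B16F10 replicate 3 or 4 or B16F0 replicate 4, 14 without B16F10 replicate 5 or B16F0 replicate 3, and 22 without B16F0 replicate 1. The share of all genes called moved alike, between 0% and 16.4%, and without the 2 Rn45s-rich libraries 0 members and 0 genes in all were called.

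The members that follow were picked for the smallest p between lanes. A gap between lane 6 and the other lanes is therefore partly given by that choice and is no separate evidence. Rps19, a small subunit protein whose human form was the first gene found mutated in Diamond-Blackfan anaemia, stood in lane 6 at 55.1, 64.1 and 107 CPM in B16F10 and at 50.8 and 79.2 CPM in B16F0. In lanes 1 and 2 it ran from 29.2 to 39.2 CPM in B16F10 and from 23.6 to 31.2 CPM in B16F0, so the 5 libraries of lane 6 lay above the other 7 in either tumour type (adjusted p = 0.0245). Rps15a ran from 67.7 to 123 CPM in lane 6 and from 44.5 to 63.2 CPM in lanes 1 and 2, without overlap. Rps25, needed for initiation at viral internal entry sites, ran from 96.8 to 203 CPM in lane 6 and from 42.1 to 90.8 CPM elsewhere. Rpl17, next to the exit of the peptide tunnel and with 50 pseudogenes sharing sequence, ran from 4.17 to 6.39 CPM in lane 6 and from 1.54 to 2.73 CPM elsewhere.

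The shift reached most members. Lane 6 minus lanes 1 and 2 had a median of 0.40 on the log2 scale over the members (57 higher, 19 lower) and -0.02 over all tested genes, of which 48.1% were higher. It was 0.36 within B16F10 (58 of 76 higher) and 0.47 within B16F0 (51 of 76 higher), and it ran from 0.34 to 0.50 when each library was left out in turn. Without the Rn45s-rich libraries, both of lane 6, it was 0.50 (67 of 76 higher). The medians were 0.47 for large and 0.35 for small subunit genes. Across the 76 genes of these libraries the shift had a Spearman rho of -0.032 with sequence uniqueness and -0.127 with mean CPM.

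Some other measures also differed between lanes, while others overlapped widely. The macrophage score, the mean log2 CPM of its markers, was 1.03 to 2.82 in lane 6 and 2.80 to 3.95 in lanes 1 and 2, and the fibroblast and pericyte score 1.72 to 3.15 in lane 6 and 2.94 to 5.56 in lanes 1 and 2. Ddx3y, a gene of the Y chromosome, had 8.70 to 29.2 CPM in the 5 libraries of lane 6, while of the other 7 libraries 2 had 27.7 and 78.1 CPM and 5 at most 0.181 CPM. The endothelial score overlapped widely, at 4.40 to 6.59 in lane 6 and 4.93 to 7.19 elsewhere. So did the melanocytic score, the mean log2 CPM of the pigment cell markers, at 8.02 to 8.47 in lane 6 and 7.92 to 8.79 elsewhere. Of 5 erythroid markers, haemoglobin genes and Alas2, 4 had 0 counts in every library, so the erythroid score is the level of 1 gene. Unlike the macrophage score, it was mostly higher in lane 6, at 4.12 to 6.63 in lane 6 and 2.37 to 4.37 in lanes 1 and 2. The part of these measures in the shift was not tested, and lane cannot be told apart from what else the libraries of a lane share.

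**Figure D4:**
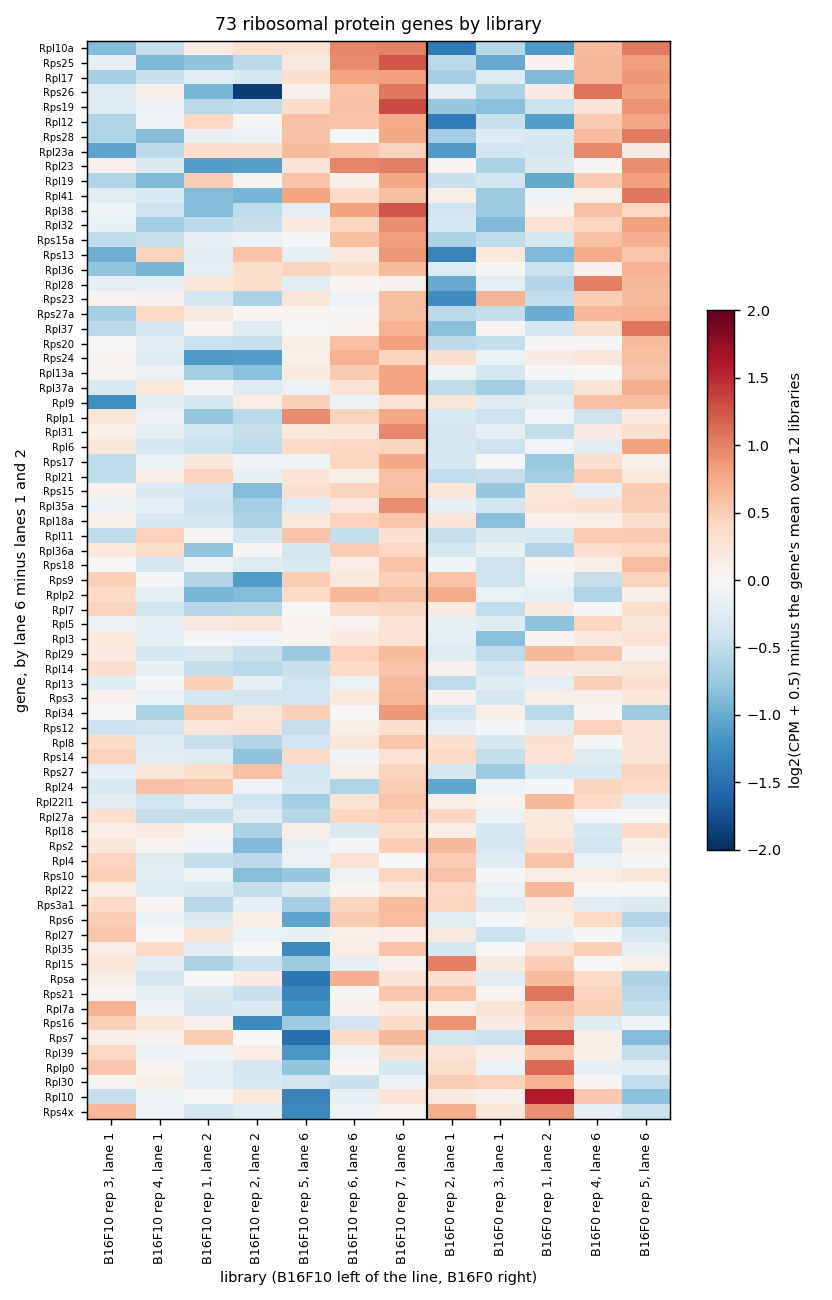
Log2(CPM + 0.5) of 73 of the 76 ribosomal protein genes (down) in the 12 libraries (across), minus each gene's mean, with the 7 B16F10 libraries left of the line and the 5 B16F0 libraries right of it and lanes in order within each. Genes are sorted by lane 6 minus lanes 1 and 2, and the upper rows are red in the lane 6 libraries of either tumour type and blue in the others.

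Since endothelial transcripts varied widely between libraries, each gene was also set against the endothelial score (the average log2 CPM of the 20 pan-endothelial markers), which ran from 4.40 to 7.13 in B16F10 and from 4.48 to 7.19 in B16F0. With lane and tumour in the model, 0 of the 76 members passed limma's test of the slope at an adjusted p under 0.05, where 4.82% of all tested genes did. Of those genes 586 had a positive slope and 66 a negative one. Slopes of the members were mostly negative, in 62 of 76 (81.6%) against 51.1% of all tested genes, with a median of -0.18 log2 CPM per unit of score against -0.01. The lean is not particular to the members, as most lists of related genes described below shared it. Negative were 11 of 12 elongation factors, 31 of 36 initiation factors, 17 of 20 other TOP messages and 46 of 55 ribosome biogenesis genes. So were 8 of 9 paralogs and fusions, 16 of 22 chaperones and turnover factors and 18 of 27 TOR pathway genes. RNA polymerase I genes were negative in 9 of 15 and p53 checkpoint genes in 4 of 16. At an unadjusted p under 0.05 and with a negative slope there were 18 members (23.7%), against 8.82% of all. The median was -0.24 over small and -0.16 over large subunit genes. Leaving out single libraries kept the median between -0.22 and -0.12 and 53 to 66 slopes negative. Of the 3 libraries with the highest scores, B16F10 replicate 4 and B16F0 replicate 3 share lane 1 and a prefix in their library names. Without both the median was -0.29, with 65 slopes negative and 0 members called, against 1.26% of all genes. With the prefix in place of the lane it was -0.32, with 68 negative, and 5 members passed in limma (6.58%, against 4.12% of all genes), among them Rpl14, Rpl8, Rps15a and Rps25. Both settings were added after seeing the data, and their shares of all genes count both directions.

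Among the lowest slopes were those of Rpsa (-0.45 ± 0.19 SE), Rps10, a small subunit protein at the mRNA entry that is ubiquitinated on stalled ribosomes (-0.39 ± 0.11), the X-linked Rps4x (-0.39 ± 0.15) and Rpl27a, of the large subunit (-0.36 ± 0.11). Rps10 ran from 8.50 over 14.7 to 22.2 CPM in B16F10 and stood at 17.5, 23.7, 15.6, 17.6 and 18.8 CPM in B16F0. In the 3 libraries of highest score Rps10 was at 13.5, 9.15 and 15.6 CPM, the last being the lowest of B16F0. Its adjusted p was 0.0901 in limma, the smallest of these 4. The slope of Rpsa was -0.14 without B16F10 replicate 5, which is rich in Rn45s. The highest slopes belonged to scarce members, Rpl23a (0.29 ± 0.14), Rps13 (0.27 ± 0.28), Rpl11 (0.26 ± 0.16), which binds Mdm2 when ribosome assembly fails, Rps23 (0.25 ± 0.23), at the decoding centre, and Rpl9 (0.16 ± 0.15). Without B16F10 replicate 5 the slope was 0.89 for Rps13 and 0.51 for Rpl23a, and without B16F0 replicate 3 it was 0.07 for Rps13. Across the 76 genes slope and log2 mean CPM had an r of -0.555, over the same libraries. Without B16F0 replicate 1, 9 members passed in limma (Rpl14, Rpl15, Rpl27a, Rpl32, Rpl7, Rpl8, Rps10, Rps25 and Rps4x), which is 11.8% against 10.2% of all genes. Without B16F10 replicate 2 there was 1 (1.32%, against 3.97%), and without lane 2 there were 4 (Rpl14, Rpl8, Rps10 and Rps25), or 5.26% against 7.35%. The shares of all genes count both directions, while the 9 members called without B16F0 replicate 1 all had negative slopes. They are therefore no like background for the members, and no conclusion is drawn from them.

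On the melanocytic score, which ran from 7.92 to 8.68 in B16F10 and from 8.28 to 8.79 in B16F0, 10 members (13.2%) had a slope past the same threshold, against 27.7% of all tested genes. The median slope of the members on it was 0.71 and that of all tested genes 0.00, while the members that passed were a smaller share than among genes at large. The 10 members all had positive slopes, whereas the share of all genes counts both directions. The part of pigment cell RNA in the members' levels was not tested.

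**Figure D5:**
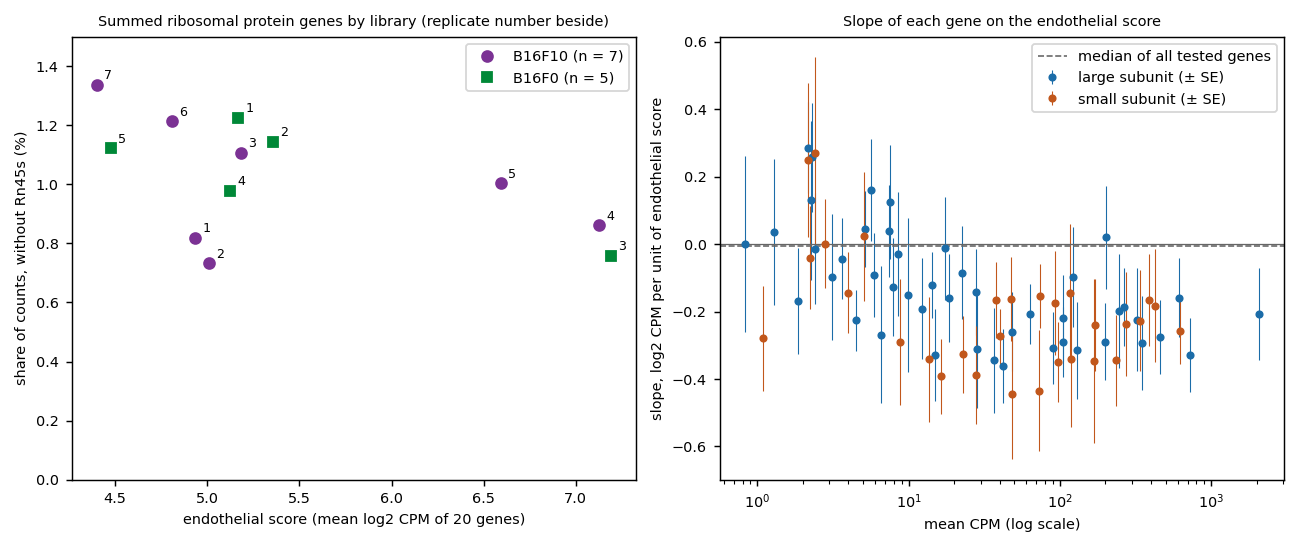
Left, the share of counts from ribosomal protein genes (percent, Rn45s left out of the total) against the endothelial score (mean log2 CPM of 20 genes) in the 7 B16F10 (circles) and 5 B16F0 libraries (squares), with replicate numbers. Right, the slope of each gene on that score with its standard error against its mean CPM (log scale), large subunit in blue and small in orange. Slopes are negative in 62 of 76 genes, and the positive ones lie mostly under 10 CPM.

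Genes that work with the ribosomal proteins were read from the same fit, by lists that overlap in some genes. Of 12 elongation factors 0 passed in either direction (median log2 fold change -0.17), with Eef1a1, which brings aminoacyl-tRNA to the ribosome, at 1595 ± 545 CPM in B16F10 and 1934 ± 857 CPM in B16F0, and Eef2, the translocase, at 2532 ± 1000 CPM in B16F10 and 3188 ± 1419 CPM in B16F0. Of 36 initiation factors 0 passed (median 0.01). Of 20 other messages with TOP tracts 0 were higher and 1 lower (median -0.28). That gene was Tpt1, the translationally controlled tumour protein, which ran from 7.41 over 9.40 to 14.3 CPM in B16F10 and from 14.7 over 16.1 to 21.1 CPM in B16F0, without overlap. Its log2 fold change was -0.71 ± 0.16 (SE, edgeR quasi-likelihood adjusted p = 0.0329), and the call was lost without B16F10 replicate 2, 4, 6 or 7 and without B16F0 replicate 1, 2, 4 or 5 (adjusted p up to 0.132).

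Of 55 ribosome biogenesis genes 0 were higher and 1 lower (median -0.05). It was Gnl3, the nucleolar GTPase nucleostemin, at 124 ± 19.7 CPM in B16F10 and 185 ± 32.6 CPM in B16F0, with a log2 fold change of -0.58 ± 0.13 (SE, edgeR quasi-likelihood adjusted p = 0.0376). The groups overlapped, and of the fits without 1 library only those without B16F10 replicate 6 or B16F0 replicate 1 kept the call (adjusted p up to 0.133 in the others). None of 15 RNA polymerase I genes (median 0.03), 9 ribosomal protein paralogs and fusions (0.04), 27 genes of the TOR pathway and TOP control (0.15), 16 p53 checkpoint genes (0.02) and 22 ribosome chaperones and turnover factors (0.00) passed in either direction. Larp1, which binds TOP tracts, was at 488 ± 106 CPM in B16F10 and 424 ± 114 CPM in B16F0, Mtor, the TOR kinase, at 72.7 ± 15.1 CPM in B16F10 and 62 ± 14.1 CPM in B16F0, and Myc, which drives ribosome synthesis genes, at 51.2 ± 10.4 CPM in B16F10 and 39.9 ± 13.4 CPM in B16F0. Ribosomal proteins made under other names were not called either. Fau, which encodes a ubiquitin-like protein fused to a ribosomal protein, stood at 2.05 ± 1.24 CPM in B16F10 and at 2.25 ± 0.86 CPM in B16F0, and Gnb2l1, the scaffold protein Rack1 of the small subunit, at 703 ± 192 CPM in B16F10 and 923 ± 303 CPM in B16F0. The medians of these lists are to be read beside 0.02 over all tested genes and -0.05 over the ribosomal protein genes.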

How the data were processed

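Gene-level read counts for 12 libraries were deposited by the authors as whole numbers, and per the submitters' processing notes reads were handled with featureCounts 1.6.0, STAR 2.2.1, cutadapt 1.16, R 3.3.2 and edgeR on the build mm10. Library preparation was by ScriptSeq, per the labels. For annotation, strand and multi-mapping the settings were not given in the sources used here. A deposited table of normalized values and the authors' comparison table were not used. Groups and lanes came from the labels. Of 24421 symbols 13534 passed filterByExpr (minimum count 10), all 76 members among them. Counts were scaled by TMM and fitted with edgeR 4.0.16 (R 4.3.3) by quasi-likelihood with lane and group, Benjamini-Hochberg adjustment over all tested genes and a threshold of 0.05. The biological coefficient of variation was 0.318. Slopes used limma 3.58.1 on log2 CPM (prior count 2). The tests were checked on simulated data. DESeq2 1.42.0, limma-voom, other scalings, filters, covariates and left-out libraries were alternatives. Coordinates, lengths and 50-base stretches came from GENCODE M21, start sequences from RefSeq. No pair of libraries in a group agreed within sampling noise (lowest chi-square per degree of freedom 7.07).

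The members and gene lists were chosen with earlier results of these data known. Members were named where they passed the group test, were the 6 highest or 6 lowest in fold change at a mean of at least 50 CPM, the 5 highest or lowest in mean CPM or slope, or the 5 of smallest lane p, besides Rpl22, Rpl22l1, Rplp0, Rplp1, Rplp2 and Rpsa. Up to 3 genes of smallest p per list, a called one where at most 6 were, and Fau, Gnb2l1, Eef1a1, Eef2, Tpt1, Myc, Mtor and Larp1 could be named from the lists. Other members were named after their values were seen. Some genes that the rule names are not reported here; they remain in all counts and medians.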

Additional observations from a re-analysis of the deposited data

Results flagged for a closer look

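In 76 groups of values, those of named members within each tumour type, the highest or lowest library was compared with the rest by Dixon's ratio, which marks about 1 group in 20 by chance, or 3.8 here. It marked 2. Rps7 stood at 52.4 CPM in B16F10 replicate 5, against 150 to 236 CPM in the other 6 B16F10 libraries. B16F10 replicate 5 is the library in which Rn45s took 31.4% of counts. In B16F0 replicate 3 Rps3 stood at 483 CPM, while the other 4 B16F0 libraries had 640 to 706 CPM. B16F0 replicate 3 has the highest endothelial score of that group, 7.19.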

How the results depend on the processing

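No member was called between B16F10 and B16F0 in any of the 29 other settings, and the share of counts moved by less than the SD of the libraries in each setting tried, changing sign to 0.057 without lane 2. Counts over all genes, 176 higher and 199 lower in B16F10, moved more. The lower ones were 131 without the lane term and 132 with library size scaling. Higher and lower were 325 and 305 with the library name prefix in place of the lane, 407 and 445 in DESeq2, 333 and 336 in limma-voom, 289 and 354 at a false discovery rate of 0.1, 111 and 125 without the Rn45s-rich libraries and 96 and 81 without lane 2. With the melanocytic score 305 were higher, and without single libraries 104 to 199 were higher and 99 to 247 lower. With the replicate number as a block (numbers 1 to 5 only) 20 and 19 were called, and 0 members. Same-numbered libraries correlated at -0.271, -0.27, -0.238, -0.287 and 0.322, so the numbers do not pair them.

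The Rpl22l1 fold change was 0.0253 in limma-voom. Other members of small fold change also changed sign. Rps7 was -0.0254 without the lane term, -0.104 with the block, -0.00255 without a filter and -0.0317 without the Rn45s-rich libraries. Rplp0 was 0.00956 with the prefix, 0.0362 with the melanocytic score and 0.021 without lane 2. With the block Rps3a1 was -0.145, Rplp2 -0.195 and Rpl38 -0.387. Without a filter, which moved the median of all genes to 0.18, Rplp2 was -0.0281 and Rpl38 -0.0392, and Rplp2 was -0.0516 without the Rn45s-rich libraries. Rpsa was 0.166 in limma-voom, 0.296 with the melanocytic score, 0.0053 without lane 2 and 0.0387 with the 3 libraries of highest endothelial score left out. Without single libraries Rpl3 ran from -0.0223 to 0.184, Rpl38 from -0.114 to 0.271, Rplp0 from -0.484 to 0.00651, Rplp2 from -0.195 to 0.282, Rps3a1 from -0.00315 to 0.311, Rps7 from -0.117 to 0.428 and Rpsa from -0.313 to 0.00424. Slopes without group and lane terms were -0.219 for Rpl23a, -0.0337 for Rps13 and -0.0778 for Rpl9, and without single libraries Rpl9 ran from -0.026 to 0.276 and Rps23 from -0.0133 to 0.529.

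Members called between lanes were 0 to 22 without single libraries, 0 without the Rn45s-rich libraries, 16 without lane 2 (21.1%, against 14.6% of all genes) and 17 with the endothelial score in the model (22.4%, against 13.9%), the last 3 settings added after seeing the data. The cause was not tested. Members with a slope were 0 to 9 without single libraries (at most 11.8%, where 10.2% of all genes were called), 4 without lane 2 (5.26%, against 7.35%), 5 with the name prefix in place of the lane (6.58%, against 4.12%), a setting also added after seeing the data, and 10 on the melanocytic score (13.2%, against 27.7%). In these slope counts the shares of all genes take both directions together. Without single libraries the slope of Rpsa ran from -0.551 to -0.138 and that of Rps13 from 0.0672 to 0.888. Tpt1 and Gnl3 lost their calls in 15 and 18 of 29 settings. Depth limits members of a few CPM most.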
